A study of Mus musculus with 2 samples.

Results

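Chaperones are proteins that help other proteins fold, and 9 genes for abundant chaperones were followed here through single cells of a mouse leukemia. They were chosen by symbol: the mitochondrial members *Hspd1*, *Hspe1* and *Hspa9*, the cytosolic members *Hspa8*, *Hsp90ab1*, *Hsp90aa1* and *Dnaja1*, and the endoplasmic reticulum members *Hspa5* and *Hsp90b1*. All 9 of these symbols were found among the 27998 genes of the count table, once each. All 9 also belonged to the 2737 robust genes, those with a molecule counted in at least 10% of kept cells.

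The cells came from acute myeloid leukemias that *MLL-AF9*, a fusion oncogene delivered by retrovirus into lineage-depleted bone marrow, raised in lethally irradiated recipient mice. Donors were *Kat2a* Flox/Flox and either Mx1-Cre -/- (WT) or Mx1-Cre +/- (KO). *Kat2a* encodes a histone acetyltransferase, and Mx1-Cre is a recombinase switched on by interferon. Donors of both genotypes received pIpC, an inducer of interferon, and marrow was taken 4 to 6 weeks afterwards. Mx1-Cre acts in many cells that answer to interferon, not in 1 blood cell type. Both groups share the floxed alleles, pIpC, the retrovirus and the irradiated host. Frozen marrow of 5 WT and 4 KO terminal leukemias was thawed, pooled by genotype, sorted for live YFP+ single cells and made into 1 10x Genomics 3′ library per genotype. No label tells the leukemias of a pool apart. With 1 library per genotype there was no replicate, so no test of genotype was possible. All intervals below are exact 95% intervals that cover counting error only.

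Of 4069 cells in the library labelled WT 3866 were kept, and of 4240 in the library labelled KO 3545, after 203 and 695 cells with under 500 detected genes were set aside. The libraries shared 28 cell barcodes. Depth differed between them: the median kept cell held 2588.5 UMIs (unique molecular identifiers, each 1 captured transcript) in the WT-labelled library and 1884 in the KO-labelled one. *Kat2a* went against the labels, with 12.2 CPM (counts per 1e6 UMIs) in the WT-labelled and 95.8 CPM in the KO-labelled library. According to the study the excised allele still makes a transcript with the 3′ end, where these tags lie, so this reading checks neither the deletion nor the labels. The libraries are named by their labels throughout. Granulocyte markers summed to 103554 and 92907 CPM, and primary granule genes of myeloid progenitors to 14933 and 13342 CPM, in the libraries labelled WT and KO, so these markers led in both. Lists of several other cell types were at lower levels: dendritic markers summed to 164 and 829 CPM, erythroid to 208 and 550 CPM, T or NK cell to 197 and 318 CPM, and mast cell or basophil to 88.4 and 181 CPM. The part of these cells in the chaperone values was not tested.

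Heat shock proteins are named for their induction by heat, but the members followed here are also made without stress. *Hspd1* (Hsp60) and *Hspe1* (Hsp10) form a barrel and its lid that fold proteins in the mitochondrial matrix, and *Hspa9* (mortalin) is the Hsp70 of that matrix and of protein import. In the cytosol, *Hspa8* (Hsc70) is the constitutive Hsp70, *Dnaja1* is a J-domain protein that delivers substrates to it, and *Hsp90ab1* and *Hsp90aa1* are the constitutive and the inducible form of Hsp90, which matures kinases and receptors. *Hspa5* (BiP) and *Hsp90b1* (Grp94) are the Hsp70 and Hsp90 of the endoplasmic reticulum, where secreted and granule proteins fold. The cytosolic and mitochondrial genes include classic targets of heat shock factor, such as *Hsp90aa1*, *Hspd1* and *Hspe1*, and the endoplasmic reticulum pair are targets of the unfolded protein response.

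Promoter sequence is shown only for members that had a promoter window, so the absence of a member such as *Hsp90aa1* says nothing about its control. RefSeq promoter windows (GRCm38.p6) were matched for 5 members, as 8 windows, each running from 250 bases before the start site to 50 bases after it. The 250 bases before the start were searched on both strands for the heat shock element, written as GAANNTTC or TTCNNGAA, and for the endoplasmic reticulum stress element, written as CCAAT, then any 9 bases, then CCACG. Either heat shock form was found in 12.8% of 32851 promoter windows of the genome, and the stress element in 0.113%. In the stretches below, the motif letters stand in capitals.
Hspe1: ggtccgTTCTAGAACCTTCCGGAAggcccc
Hspd1: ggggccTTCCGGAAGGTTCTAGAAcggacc
Dnaja1: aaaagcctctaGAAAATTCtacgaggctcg
Hspa5: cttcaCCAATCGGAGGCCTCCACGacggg
Hsp90b1: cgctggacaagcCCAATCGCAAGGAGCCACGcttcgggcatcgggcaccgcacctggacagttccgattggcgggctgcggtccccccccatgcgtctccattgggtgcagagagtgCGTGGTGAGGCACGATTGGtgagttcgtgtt

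The first 2 lines are 1 stretch of DNA read on its opposite strands, chr1:55088053-55088082, on the plus strand for *Hspe1* and on the minus strand for *Hspd1*. These genes stand head to head, with start sites 216 bases apart for 1 of the *Hspd1* starts. The stretch lies 95 to 66 bases before the *Hspe1* start and 150 to 121 bases before that *Hspd1* start, in sequence that the annotation also gives to an exon of another *Hspd1* transcript. It holds TTCNNGAA again 2 bases after its first copy, a longer form in which the matches to GAANNTTC and TTCNNGAA overlap. This form, or GAANNTTC repeated in the same way, was found in 0.0213% of windows (7 of 32851, these windows of both genes included). The window of the other *Hspd1* start had no match to either heat shock form. The *Dnaja1* stretch, chr4:40722333-40722362 on the plus strand, lies before 1 of the *Dnaja1* starts. It holds 1 match to GAANNTTC and overlaps an annotated *Dnaja1* exon. The windows of the other *Dnaja1* starts had no match to either heat shock form. For *Hspa5* the stretch is chr2:34772020-34772048 on the plus strand, overlapping an annotated *Hspa5* exon, with 1 stress element. For *Hsp90b1* it is chr10:86705521-86705668 on the minus strand, outside annotated exons, with 1 stress element on each strand. A match describes letters only and is not evidence of binding.

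Over all kept cells the cytosolic members were together lower in the KO-labelled library and the other groups differed less, but in cells matched on total UMIs the mitochondrial difference was the larger. Cytosolic UMIs summed to 2430 CPM in the WT-labelled library and 1995 CPM in the KO-labelled library, a log2 ratio (KO label over WT label, here and throughout) of -0.28 (interval -0.31 to -0.26). It was -0.075 (-0.11 to -0.04) in cells matched on total UMIs and -0.17 (-0.20 to -0.13) in cells matched inside expression clusters. The mitochondrial members summed to 369 and 350 CPM, a log2 ratio of -0.07 (-0.14 to -0.01), which turned to 0.29 (0.20 to 0.37) in the matched cells. For the endoplasmic reticulum members the sums were 927 and 895 CPM, a log2 ratio of -0.05 (-0.09 to -0.01), and 0.0059 (-0.05 to 0.06) in cells matched inside expression clusters. All 9 members took 0.373% of UMIs in the WT-labelled library and 0.324% in the KO-labelled library.

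The cytosolic difference was largest for the Hsp90 genes. *Hsp90ab1* stood at 787 CPM (771 to 804) in the WT-labelled library and 489 CPM (473 to 504) in the KO-labelled library, a log2 ratio of -0.69 (-0.74 to -0.63) or 1.61-fold lower. *Hsp90aa1* stood at 429 CPM (417 to 441) against 323 CPM (311 to 336), a log2 ratio of -0.41 (-0.48 to -0.34) or 1.33-fold lower. These were the 2 of 9 members lower past a 25% difference (the higher library over the lower), beside 12.2% of all robust genes. Past a 50% difference 1 of 9 members, *Hsp90ab1*, was lower, beside 3.43%. No member (0 of 9) was higher past 25%, beside 17.5% of robust genes, or past 50%, beside 3.54%. In cells matched on total UMIs the tally past 25% was 1 lower, *Hsp90ab1*, and 2 higher, *Hspe1* and *Hspa9*. With 1000 or more genes, or thinned to 1500 UMIs, 1 member was lower. The shares of robust genes were calculated over all kept cells only, so these other tallies have none beside them.

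The Hsp70 side of the cytosol differed less. *Hspa8*, the most abundant member, was at 984 CPM (966 to 1002) in the WT-labelled library and 938 CPM (917 to 959) in the KO-labelled library, a log2 ratio of -0.07 (-0.11 to -0.03). *Dnaja1* was at 229 CPM (221 to 238) against 246 CPM (235 to 257), a log2 ratio of 0.10 (0.01 to 0.18). It was the 1 of 9 members whose interval lay above 0, beside 43.9% of robust genes. Intervals lay below 0 for 5 of 9 members, beside 25.9%. In matched cells, *Hspa8* was at 0.08 (0.03 to 0.13), the opposite direction, and *Dnaja1* at 0.15 (0.05 to 0.25). Matched inside clusters, both intervals included 0, at 0.04 (-0.01 to 0.10) and 0.09 (-0.02 to 0.21). In matched cells 3 of 9 members had a log2 ratio below 0, a count for which no share of robust genes was calculated.

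Over all kept cells the mitochondrial barrel had the lower value in the KO-labelled library, and the intervals of the lid and of mortalin included 0, while in matched cells the lid and mortalin were higher. *Hspd1* was at 169 CPM (161 to 176) in the WT-labelled library and 144 CPM (135 to 152) in the KO-labelled library, a log2 ratio of -0.23 (-0.34 to -0.13), which turned to 0.12 (-0.0056 to 0.25) in cells matched on total UMIs. *Hspe1* was at 87.8 CPM (82.5 to 93.3) against 92.8 CPM (86.2 to 99.8), a log2 ratio of 0.08 (-0.06 to 0.22). *Hspa9*, on chromosome 18, was at 112 CPM (106 to 119) against 114 CPM (106 to 121), a log2 ratio of 0.02 (-0.11 to 0.14). The intervals of the libraries overlapped for *Hspe1* and *Hspa9* and were apart for *Hspd1*. In cells matched on total UMIs the log2 ratio was 0.37 (0.20 to 0.54) for *Hspe1* and 0.45 (0.30 to 0.61) for *Hspa9*. Matched inside clusters, it was 0.20 (0.02 to 0.39) and 0.18 (0.02 to 0.35), and -0.03 (-0.17 to 0.10) for *Hspd1*.

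In the endoplasmic reticulum the levels of *Hspa5* were close, with 680 CPM (665 to 695) in the WT-labelled library and 685 CPM (666 to 703) in the KO-labelled library, a log2 ratio of 0.01 (-0.04 to 0.06). *Hsp90b1* was at 247 CPM (238 to 256) against 210 CPM (200 to 221), a log2 ratio of -0.23 (-0.32 to -0.14). All 3 Hsp90 members, of the cytosol and the endoplasmic reticulum, therefore had lower values in the KO-labelled library. This held under each of 12 alternative settings, with ranges of -0.76 to -0.41 for *Hsp90ab1*, -0.50 to -0.09 for *Hsp90aa1* and -0.30 to -0.11 for *Hsp90b1*. In 1 depth class each the value was above 0, with an interval that included 0: under 1500 UMIs the log2 ratio was 0.15 (-0.08 to 0.38) for *Hsp90ab1* and 0.11 (-0.18 to 0.42) for *Hsp90b1*, and from 1500 to 2500 UMIs it was 0.11 (-0.05 to 0.28) for *Hsp90aa1*. *Trap1*, a mitochondrial Hsp90 outside the members and the robust genes, was at 34.4 and 33.2 CPM, a log2 ratio of -0.05 (-0.28 to 0.18). Across the robust genes the median log2 ratio was 0.07, and across the 9 members it was -0.07.

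**Figure D1:**
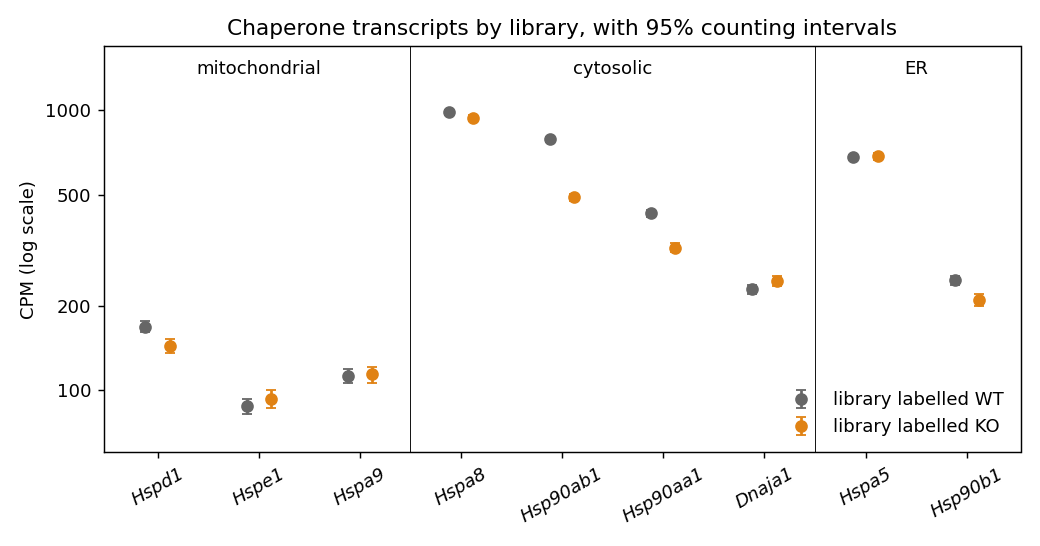
Level of each chaperone gene in CPM (log axis) in the WT-labelled library (grey) and the KO-labelled library (orange), grouped by compartment, with exact 95% counting intervals as bars. *Hsp90ab1* shows the widest gap between libraries, 787 against 489 CPM, while the *Hspa5* points, 680 and 685 CPM, lie side by side.

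UMIs count 1 tag at the 3′ end of each transcript, so levels between genes can be ordered without regard to length. From high to low the order in the WT-labelled library was *Hspa8*, *Hsp90ab1*, *Hspa5*, *Hsp90aa1*, *Hsp90b1*, *Dnaja1*, *Hspd1*, *Hspa9* and *Hspe1*, where the intervals of the neighbours *Hsp90b1* and *Dnaja1* overlapped. In the KO-labelled library, *Hspa5* stood above *Hsp90ab1* and *Dnaja1* above *Hsp90b1*, and no neighbours' intervals overlapped. Some levels are uncertain because processed copies share sequence. In the last 500 transcript bases, 68.6% of 50-base stretches of *Hspa8* also occur in 11 other genes, and the share is 53.2% for *Hspe1*, 39.1% for *Dnaja1*, 29.8% for *Hspd1* and 24.7% for *Hsp90aa1*. For *Hsp90ab1* and *Hsp90b1* it is 2.25% and 2.11%, and for *Hspa9* and *Hspa5* it is 0. None of those other genes is a row of the count table.

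The share of cells with at least 1 UMI was read at each cell's own depth and at equal depth. *Hsp90ab1* was counted in 59.9% of cells in the WT-labelled library and 44.1% in the KO-labelled library. When every cell with 1000 or more UMIs was thinned to 1000 UMIs, which left out 66 and 194 cells, the shares were 39.0% (37.4 to 40.6) and 28.2% (26.7 to 29.7). For *Hsp90aa1* the shares went from 48.6% and 35.6% to 25.4% (24.0 to 26.8) and 19.9% (18.6 to 21.3) on thinning. *Hspe1*, counted in 16.7% and 12.8% of cells, was at 6.11% (5.36 to 6.91) and 6.30% (5.50 to 7.17) after thinning. *Hspa5*, counted in 70.1% and 63.3% of cells, was at 43.9% (42.3 to 45.5) and 43.5% (41.8 to 45.2). So at equal depth the intervals were apart for both cytosolic Hsp90 genes and overlapped for *Hspe1* and *Hspa5*. No cell type is known to lack these genes, so the share that free RNA gives could not be set beside them.

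Cells differed in how many chaperone transcripts they held. In thinned cells, the mitochondrial members had no UMI in 78.4% of cells of the WT-labelled library and 79.6% of the KO-labelled library, the cytosolic members in 20.7% and 27.3%, and the endoplasmic reticulum members in 46.6% and 47.8%. The Fano factor (variance over mean, 1 for pure counting) of single members in thinned cells ran from 1.11 for *Hspa9* to 1.67 for *Hspe1* in the WT-labelled library, and from 1.17 for *Hspa9* to 1.67 for *Hspa8* in the KO-labelled library. The high *Hspe1* value rested on few cells: without its 10 highest thinned cells the Fano factor was 1.14 in each library. The CV (coefficient of variation, the standard deviation divided by the mean) had a median log2 ratio of 0.14 over the members in thinned cells, beside 0.02 over robust genes. Unthinned, these medians were 0.27 and 0.21, and in matched cells the members' median was -0.062. The largest ratios in thinned cells were 0.25 for *Hsp90ab1*, 0.22 for *Hsp90aa1* and 0.22 for *Hsp90b1*, members with lower levels in the KO-labelled library. A CV also depends on the mean, and the part of the mean in these ratios was not tested. The median Fano factor of the members in thinned cells was 1.38 in the WT-labelled and 1.33 in the KO-labelled library, and that of robust genes 1.16 and 1.27.

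Mitochondrial and cytosolic chaperone levels were higher in cells with more UMIs, and the libraries differed in depth. Mitochondrial members went from 175 CPM in cells under 1500 UMIs to 560 CPM in cells with 4000 or more in the WT-labelled library, and from 201 to 756 CPM in the KO-labelled library. Cytosolic members went from 1525 to 3232 CPM and from 1496 to 3210 CPM. Endoplasmic reticulum members went from 814 to 971 CPM in the WT-labelled library. In the KO-labelled library they were at 930 CPM under 1500 UMIs, 817 CPM from 1500, 893 CPM from 2500 and 1001 CPM from 4000 UMIs, with no steady course. Of the kept cells, 882 in the WT-labelled library and 290 in the KO-labelled library had 4000 or more UMIs.

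Within each depth class the mitochondrial members had higher values in the KO-labelled library, with the interval above 0 in 2 of 4. Their log2 ratios were 0.20 (-0.11 to 0.52) under 1500 UMIs, 0.29 (0.11 to 0.47) from 1500, 0.14 (-0.0036 to 0.28) from 2500 and 0.43 (0.33 to 0.53) from 4000 UMIs. In the deepest cells the log2 ratio was 0.69 (0.49 to 0.89) for *Hspe1*, 0.37 (0.22 to 0.52) for *Hspd1* and 0.32 (0.13 to 0.50) for *Hspa9*. The direction for *Hspd1* was thus opposite to that over all kept cells. For the cytosolic members the log2 ratio lay between -0.07 and -0.01 in every depth class, against -0.28 over all kept cells.

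*Hsp90ab1* kept its direction in 3 of 4 depth classes. Its level was 316 and 349 CPM under 1500 UMIs, 407 and 346 CPM from 1500, 723 and 507 CPM from 2500 and 1103 and 827 CPM from 4000 UMIs, in the WT-labelled and KO-labelled libraries. The log2 ratio was -0.51 (-0.62 to -0.41) from 2500 and -0.42 (-0.50 to -0.33) from 4000 UMIs. *Hspa8* and *Dnaja1* stood against it in the deepest cells, with log2 ratios of 0.26 (0.19 to 0.33) and 0.33 (0.18 to 0.48). For *Hsp90aa1* the log2 ratio there was -0.14 (-0.25 to -0.03). Among 2766 cells per library matched on total UMIs, the log2 ratio was -0.41 for *Hsp90ab1* and -0.09 for *Hsp90aa1*, and *Hspa8* turned to 0.08. Depth and genotype label move together in these libraries, and what depth stands for in a cell was not tested.

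**Figure D2:**
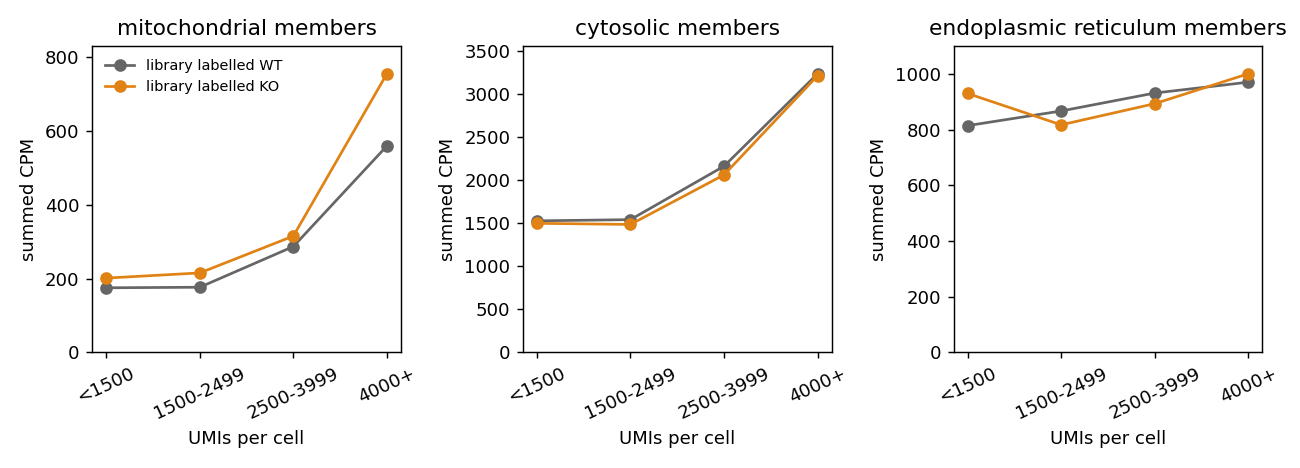
Summed CPM of the mitochondrial, cytosolic and endoplasmic reticulum members in cells of 4 depth classes (UMIs per cell), in the WT-labelled library (grey) and the KO-labelled library (orange). Mitochondrial members reach 560 and 756 CPM in the deepest cells, cytosolic lines nearly coincide, and endoplasmic reticulum lines stay between 814 and 1001 CPM.

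Cells were grouped into 12 clusters without using any listed chaperone gene, and the members were then read in each cluster. Cluster 5, led by *Slc25a4*, *Irf8*, *C1qbp*, *Dkc1* and *Srm*, genes of mitochondria, monocyte fate, ribosome making and polyamine synthesis, was the deepest, with a median of 4460.5 UMIs per cell. It was given no class name. Cluster 5 held the highest level of both the mitochondrial members, 845 CPM with the UMIs of both libraries pooled, and the cytosolic members, 4008 CPM. It was also the highest for both groups in each library alone. Cluster 3, granulocyte-like and led by *Ltf* and *Mmp9*, held the lowest pooled levels, 96.6 and 965 CPM. The pooled range between clusters was 8.75-fold for the mitochondrial and 4.15-fold for the cytosolic members. In the separate libraries the lowest was cluster 3 or the likewise granulocyte-like cluster 11.

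The endoplasmic reticulum members followed another order. In the WT-labelled library their highest cluster was 7, monocyte- or macrophage-like and led by *Itgb7* and *Pld4*, with 1392 CPM, and their lowest was 12, granulocyte-like and led by *Stfa1* and *Gm5483*, with 582 CPM, a range of 2.39-fold. In the KO-labelled library the highest was cluster 4, led by *Mpo* and *Elane*, with 1080 CPM, close to clusters 6 (1067 CPM) and 7 (1055 CPM), and the lowest was cluster 10 with 623 CPM, a range of 1.73-fold. Across 24 sums of cluster and library, the Spearman correlation was 0.87 between mitochondrial and cytosolic levels, 0.51 between mitochondrial and endoplasmic reticulum levels, and 0.64 between cytosolic and endoplasmic reticulum levels. These sums share their libraries and differ in depth, so the correlations are descriptions only.

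Single members differed widely in range, given here with the UMIs of both libraries pooled. *Hspe1* spanned 18.8-fold, from 11 CPM in granulocyte-like cluster 11 to 207 CPM in cluster 5, and *Hspa9* spanned 9.96-fold, from 25.3 to 252 CPM. The low end of *Hspe1* rested on 6 UMIs in the WT-labelled and 5 in the KO-labelled library. In the separate libraries its lowest cluster was another, cluster 10 (4.04 CPM, 1 UMI) in the WT-labelled and cluster 3 (11.5 CPM, 4 UMIs) in the KO-labelled library. *Hspd1*, *Hsp90ab1* and *Hsp90aa1* spanned 7.43-fold, 7.18-fold and 7.05-fold. *Dnaja1* spanned 1.64-fold, but its order differed between the libraries. It ran from 190 CPM in cluster 10, led by the S phase genes *Rrm2* and *Tk1*, to 262 CPM in cluster 4 in the WT-labelled library, and from 151 CPM in cluster 7 to 341 CPM in cluster 6 in the KO-labelled library. *Hspa5* spanned 2.06-fold, from 436 to 897 CPM pooled.

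**Figure D3:**
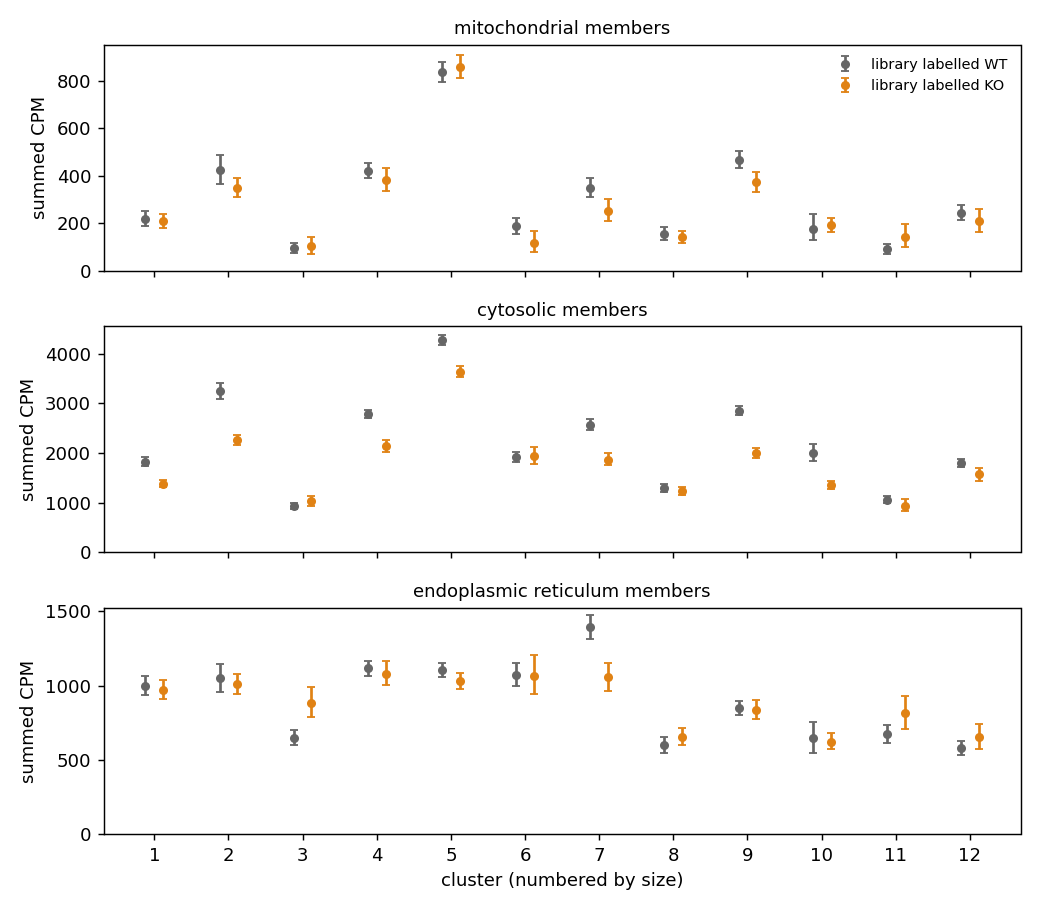
Summed CPM of the mitochondrial, cytosolic and endoplasmic reticulum members in each of 12 clusters, for the WT-labelled library (grey) and the KO-labelled library (orange), with exact 95% counting intervals. Cluster 5 holds the highest mitochondrial and cytosolic levels in each library, and cluster 7 of the WT-labelled library the highest endoplasmic reticulum level.

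Within clusters, *Hsp90ab1* was lower in the KO-labelled library in 12 of 12 clusters, beside 4.46% of robust genes, and no member was higher in 12 of 12, beside 6.98%. Its log2 ratio ran from -1.10 in cluster 2 (1485 and 692 CPM), led by *Ly6e* and *H2-DMa*, to -0.10 in cluster 10 (287 and 267 CPM), and its interval lay below 0 in 10 of 12. In cluster 5 it was at 1530 and 977 CPM. *Hsp90aa1* was lower in 11 of 12 clusters, with the interval below 0 in 9, and in cluster 3 it was at 91.3 and 121 CPM. *Hsp90b1* was also lower in 11 of 12, with the interval below 0 in 4. *Hspd1* was lower in 10 of 12, with the interval below 0 in 4.

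The other members had no single direction over clusters. *Hspa8* was lower in 7, *Hspa9* in 7, *Hspe1* in 6, *Dnaja1* in 5 and *Hspa5* in 3 of the 12 clusters. *Dnaja1* was higher with its interval above 0 in cluster 5 (246 and 326 CPM) and in monocyte- or macrophage-like cluster 6 (204 and 341 CPM), led by *Ccl6* and *Apoe*. *Hspa5* was lower in cluster 7 (994 and 734 CPM) and higher in granulocyte-like clusters 3 (540 and 792 CPM) and 11 (537 and 686 CPM) and in mitotic cluster 8 (415 and 489 CPM). The cells of a cluster still differed in depth between libraries, as in cluster 5, where the median cell held 4810 and 3866 UMIs. With 1909 cells per library matched on total UMIs inside each cluster, the log2 ratio was -0.49 (-0.56 to -0.42) for *Hsp90ab1*, -0.34 (-0.43 to -0.25) for *Hsp90aa1* and -0.24 (-0.35 to -0.12) for *Hsp90b1*, but -0.03 (-0.17 to 0.10) for *Hspd1*.

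**Figure D4:**
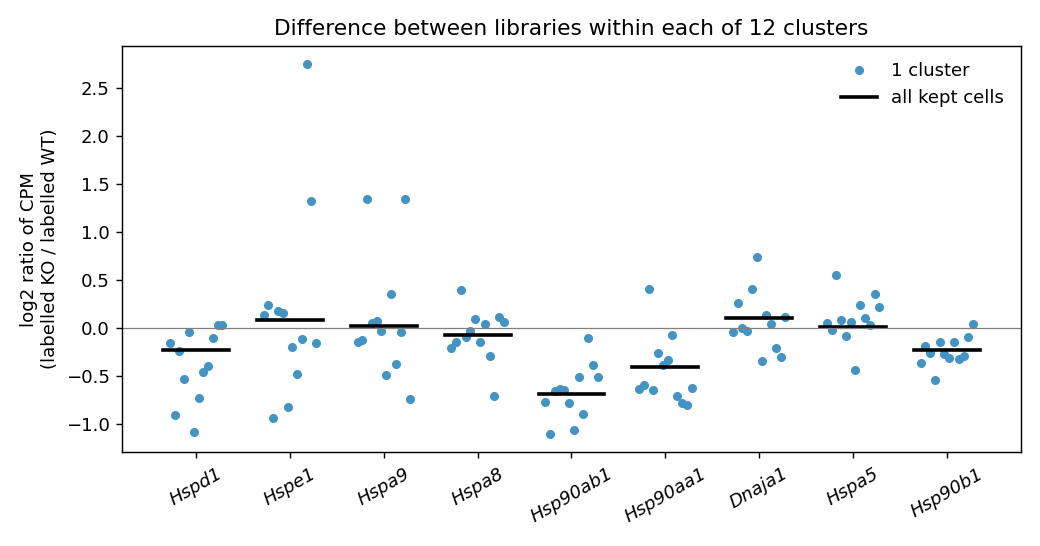
Log2 ratio of CPM (KO label over WT label) of each member, 1 blue point per cluster in cluster order and a black bar for all kept cells. All 12 *Hsp90ab1* points lie below 0, whereas those of *Hspe1*, *Hspa8*, *Dnaja1* and *Hspa5* fall on either side; the highest *Hspe1* point, cluster 10, rests on 1 UMI in the WT-labelled library and 23 in the KO-labelled library.

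Ratios between partner genes inside a library do not depend on its depth scaling, but they can differ with the depth of its cells. There were 0.52 *Hspe1* UMIs (0.48 to 0.56) for each *Hspd1* UMI in the WT-labelled library and 0.65 (0.59 to 0.71) in the KO-labelled library. For *Hspa9* per *Hspd1* the values were 0.67 (0.62 to 0.72) and 0.79 (0.73 to 0.87). The cytosolic Hsp90 pair had 1.84 *Hsp90ab1* UMIs (1.77 to 1.90) per *Hsp90aa1* UMI and then 1.51 (1.44 to 1.59), so the constitutive form was the more abundant in both libraries. *Hspa5* per *Hsp90b1* was 2.76 (2.64 to 2.88) and 3.25 (3.08 to 3.44), and *Dnaja1* per *Hspa8* was 0.23 (0.22 to 0.24) and 0.26 (0.25 to 0.28). Some of these differences ran the other way in a depth class. From 4000 UMIs the log2 ratio between libraries was 0.32 for *Hspa9* and 0.37 for *Hspd1*. Under 1500 UMIs it was 0.15 for *Hsp90ab1* and -0.29 for *Hsp90aa1*, and -0.18 for *Dnaja1* and 0.0032 for *Hspa8*. In the other depth classes *Hspa9* per *Hspd1* and the Hsp90 pair kept their direction. No intervals were calculated for ratios by depth class.

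The balance of the Hsp90 pair differed between clusters. In the WT-labelled library it ran from 0.58 *Hsp90ab1* UMIs per *Hsp90aa1* UMI (0.43 to 0.79) in cluster 10 to 3.84 (3.25 to 4.55) in cluster 2, and in the KO-labelled library from 0.79 (0.64 to 0.97) in cluster 8, led by the mitotic genes *Ube2c* and *Ccnb1*, to 2.70 (2.30 to 3.18) in cluster 2. The interval lay below 1, more inducible than constitutive UMIs, for cluster 10 in the WT-labelled and cluster 8 in the KO-labelled library, but not for the same cluster in both: cluster 10 had 0.93 (0.78 to 1.12) in the KO-labelled library and cluster 8 had 1.07 (0.89 to 1.29) in the WT-labelled library. Granulocyte-like cluster 12 had 0.88 (0.76 to 1.01) and 0.95 (0.72 to 1.26). *Hspa5* outnumbered *Hsp90b1* in each of the 12 clusters, from 2.21 to 4.89 in the WT-labelled library and from 2.29 to 8.63 in the KO-labelled library. *Dnaja1* per *Hspa8* ran from 0.14 in cluster 5 to 0.49 in cluster 3 in the WT-labelled library.

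The genes whose levels ran most like each group over the 24 sums, outside the listed chaperones, were named by rank. For the mitochondrial members these were *Rpl21*, *Rps2*, *Gnb2l1*, *Rpl22* and *Rpl5*, with Spearman correlations of 0.95, and for the cytosolic members *Rpl41*, *Tmem147*, *Adss*, *Rps20* and *Rpl18*, with 0.94 to 0.95. For the endoplasmic reticulum members they were *Higd2a*, *Sec61b*, *Glipr1*, *Ly6c2* and *Tifa*, with 0.88 to 0.90. The first 2 sets were thus largely genes of the cytosolic ribosome. Ribosomal protein genes took 14.5% of UMIs in the WT-labelled library and 11.9% in the KO-labelled library. With these and mitochondrially encoded genes left out of the total, the log2 ratio of the cytosolic members was -0.33, at least as large as with them.

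Of 104 other listed genes of protein folding and cell stress, 102 were in the files and 64 in the robust set. Past a 25% difference, 11 of these (17.2%) were higher in the KO-labelled library and 7 (10.9%) were lower, near the shares of all robust genes, 17.5% and 12.2%. The counts of each list are read against the same shares. The list of Hsp90 partners had 15 genes, 11 robust, with 1 higher and 2 lower. *Ptges3*, the co-chaperone p23, was at 132 and 81.3 CPM, a log2 ratio of -0.70 (-0.83 to -0.57). *Ahsa2*, a relative of the activator of the Hsp90 ATPase, was at 56.6 and 41.3 CPM, a log2 ratio of -0.46 (-0.65 to -0.26). *Fkbp4*, an immunophilin that binds Hsp90, was at 86.5 and 109 CPM, a log2 ratio of 0.34 (0.20 to 0.47). The median log2 ratio of the 11 was 0.19, so the lower values of the Hsp90 members were shared by *Ptges3* and *Ahsa2* and not by most of these robust partners. Outside the robust genes, *Unc45a* was at 29.4 and 15.9 CPM, a log2 ratio of -0.89 (-1.19 to -0.59). The intervals of the other listed partners outside the robust genes, *Fkbp5*, *Ppp5c* and *Chordc1*, included 0.

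Hsp70 partners went both ways, with 4 higher and 2 lower of 13 robust genes and a median log2 ratio of 0.13, beside 17.5% and 12.2% of robust genes. Among the J-domain genes in that list, *Dnajb6* was at 256 and 359 CPM, a log2 ratio of 0.49 (0.41 to 0.56), and *Dnajc8* at 179 and 269 CPM, 0.59 (0.50 to 0.67). *Dnajc2*, which works at the ribosome, was at 78.8 and 60.4 CPM, a log2 ratio of -0.39 (-0.55 to -0.22). *Hspa2*, an Hsp70 best known from the testis, was at 133 and 106 CPM, a log2 ratio of -0.33 (-0.45 to -0.21).

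Of 11 listed inducible heat shock genes, 1 was robust, *Dnajb1*, a J-domain partner of Hsp70 induced by heat. It was at 165 and 253 CPM, a log2 ratio of 0.62 (0.53 to 0.71), higher while *Hsp90aa1* was lower. The 11 genes together summed to 235 CPM (226 to 244) and 312 CPM (299 to 324), most of it *Dnajb1*, so the sum does not describe the other genes. *Hspa1a*, the stress-induced Hsp70, was at 25.5 and 22.0 CPM, a log2 ratio of -0.21 (-0.49 to 0.06). *Dnajb4* was at 20.1 and 12.6 CPM, -0.67 (-1.02 to -0.32), and *Bag3* at 4.54 and 5.93 CPM, 0.39 (-0.21 to 0.98). Genes that answer to cell handling, such as *Dusp1* and *Junb*, summed over their list of 13 to 7784 and 9359 CPM, and their part in the chaperone values was not tested.

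Of 7 robust mitochondrial partners 3 were higher and 0 lower, beside 17.5% and 12.2% of robust genes, with a median log2 ratio of 0.18. With the wider choice of genes found in 5% of cells or more, 3 of 13 were higher and 1 lower. *Dnajc19*, of the import motor, was at 121 and 161 CPM, a log2 ratio of 0.41 (0.30 to 0.52), and *Clpp*, a matrix protease, at 60.8 and 77.8 CPM, 0.35 (0.20 to 0.51). Of 13 robust genes of the cytosolic chaperonin and prefoldin, 1 was higher and 0 lower. The gene that was higher, the prefoldin subunit *Pfdn2*, was at 234 and 323 CPM, a log2 ratio of 0.46 (0.38 to 0.54).

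Among 15 robust endoplasmic reticulum chaperones, 1 was higher and 3 lower, beside 17.5% and 12.2% of robust genes, with a median log2 ratio of 0.0032. *Canx* (calnexin), which folds glycoproteins, was at 167 and 119 CPM, a log2 ratio of -0.49 (-0.61 to -0.38), and *Pdia4*, a disulfide isomerase, at 92.4 and 73.0 CPM, -0.34 (-0.49 to -0.19). *Creld2*, a target of the unfolded protein response, was at 48.5 and 61.4 CPM, a log2 ratio of 0.34 (0.16 to 0.52). Of 3 robust regulators of that response and 1 robust heat shock regulator, none passed a 25% difference, at median log2 ratios of -0.21 and 0.26.

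**Figure D5:**
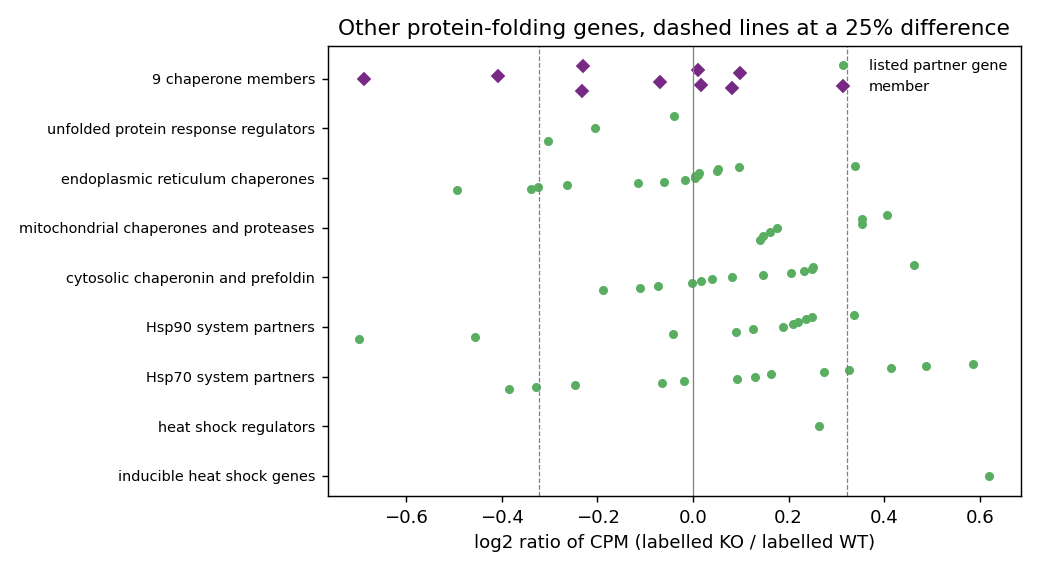
Log2 ratio of CPM (KO label over WT label) of the 9 members (purple diamonds) and of robust genes in each list of other protein-folding genes (green points), with dashed lines at a 25% difference either way. *Hsp90ab1* and *Hsp90aa1* are the 2 diamonds left of the dashed line, and all 7 mitochondrial partners lie right of 0.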

How the data were processed

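Per the labels and the study's methods, 10x Genomics 3′ reads were processed by the authors with Cell Ranger. The version is 1.3.1, with mm10, in the submitters' processing notes, whereas the study's methods name a later version. The deposited matrix holds UMI counts, not normalized, for 27998 genes and 8309 cells. Barcode endings were mapped to the labels through the study's published code. Total kept counts were 11669427 UMIs in the WT-labelled library and 7920256 in the KO-labelled library. Cells with 500 or more genes were kept, and doublets were not removed. Levels are summed UMIs per 1e6. Intervals are exact Poisson or binomial intervals, and for a count of 0 the upper limit was 0.316 CPM in the WT-labelled and 0.466 CPM in the KO-labelled library. Clusters came from k-means (12 clusters, 10 starts, scikit-learn 1.9.0) on 20 principal components of 784 variable genes, without members or listed chaperones. A cluster was called like a class from preset markers among its leading genes. Gene positions are those of GENCODE (GRCm38), by Ensembl identifier, and *Hspa8*, *Hspa9*, *Hsp90aa1* and *Hsp90ab1* had no entry among the promoter windows. The members and lists were chosen with earlier results of these data known. Genes outside the members were named by rule: in each list, at most 2 robust genes with the largest difference past a 25% difference in each direction, and the 5 robust genes most like each group. *Hspa1a*, *Dnajb4*, *Bag3*, *Trap1*, *Unc45a*, *Fkbp5*, *Ppp5c* and *Chordc1* were added after their values were seen. Calculations used numpy 2.4.6 and scipy 1.17.1 and were tested on simulated data. Alternatives were other limits on cells, thinning, matching, scaling, weighting, cell removal and cluster number.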

Additional observations from a re-analysis of the deposited data

Results flagged for a closer look

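Among cells with under 500 genes, which no comparison above uses, 2 of 9 members had higher levels in the KO-labelled than in the WT-labelled library. In 695 such cells of the KO-labelled library, *Hspa8* was at 524.7 CPM (471 to 583), against 368 CPM (292 to 456) in 203 such cells of the WT-labelled library. *Hspa5* was at 595.3 CPM (538 to 657) against 412 CPM (332 to 506). For the other 7 members the interval of the log2 ratio between libraries included 0 in these cells. The share of all robust genes with such a difference was not calculated in these cells, so the count is a description only.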

How the results depend on the processing

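No paired analysis was possible because there is 1 library per genotype. The log2 ratio of the mitochondrial members was 0.18 in cells with 1000 or more genes, 0.022 thinned to 1500 UMIs, 0.29 matched on total UMIs, 0.091 matched inside clusters (chosen after seeing the data) and -0.15 with median of ratios scaling. That of the cytosolic members was -0.33 with every deposited cell, -0.12 in cells with 1000 or more genes, -0.075 matched, -0.17 matched inside clusters, -0.36 with median of ratios scaling, -0.33 without ribosomal protein and mitochondrial genes and -0.31 with equal weight per cluster. For the endoplasmic reticulum members it was -0.12 with median of ratios scaling and 0.0059 matched inside clusters. *Hspd1* turned to 0.12 with 1000 or more genes and 0.12 matched. *Hspa8* turned to 0.11, 0.084 and, matched inside clusters, 0.043, and *Dnaja1* to -0.010 thinned to 1000 UMIs. Members lower past a 25% difference numbered 1 with 1000 or more genes, thinned to 1500 UMIs or matched, and members higher numbered 2 when matched. Shares of robust genes were not calculated under these alternatives. Over members, the median CV ratio (log2) was 0.14 in thinned cells, -0.062 matched, 0.042 with 1000 or more genes, 0.088 without the 10 cells with most UMIs, and 0.27 unthinned, an alternative added after the data were seen. Past a 50% difference, 2 of the 64 other listed robust genes were higher and 1 lower, beside 3.54% and 3.43% of all robust genes over all kept cells. The cause of these shifts was not tested. With 8 or 16 clusters the mitochondrial range was 8.49-fold and 10.6-fold. Of 69 alternative values for the main results, 45 changed little. Depth limits what low members can show, with *Hspe1* counted in 14.8% of kept cells.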

Other observations

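Genes that respond to cell handling did not move as 1 block between the libraries. Of 10 robust genes in that list, 4 were higher and 2 lower past a 25% difference in the KO-labelled library, beside 17.5% and 12.2% of robust genes. *Dusp1*, a phosphatase of MAP kinases, was at 1289 and 1819 CPM, a log2 ratio of 0.50 (0.46 to 0.53), and *Junb*, a subunit of the transcription factor AP-1, was at 871 and 1170 CPM, a log2 ratio of 0.43 (0.39 to 0.47). *Fosb*, another subunit of AP-1, was at 215 and 143 CPM, a log2 ratio of -0.59 (-0.70 to -0.49), and *Btg2*, an antiproliferative gene, at 180 and 128 CPM, -0.49 (-0.60 to -0.39).

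Cell by cell the members were nearly unrelated. Over the 36 pairs of members in thinned cells, Pearson's r had a median of 0.05 in each library and a highest value of 0.16 in the WT-labelled library and 0.13 in the KO-labelled library, which in counts this sparse is no finding.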
